A study of Mus musculus with 12 samples.

Results

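Chemokines and their receptors were examined along the tonotopic axis of the adult mouse cochlea. A gene was taken as a member when its name on the array was Ccl, Cxcl, Cx3cl, Ccr, Cxcr or Cx3cr followed by a number, which gave 51 of 19505 genes, 33 ligands and 18 receptors, read by 144 of 165865 probes. Cochleae of male C57BL/6 mice aged 6 weeks, with the lateral wall and the organ of Corti, had been cut into an apical, a middle and a basal turn, with 4 samples a turn, and the labels name no treatment. The paper names 4 mice, so samples of different turns share animals, while the main fit below treats the arrays as unpaired. Each sample was whole tissue, so hair cells, neurons, lateral wall, vessels and immune cells were measured together, and fewer cells of a type and less RNA per cell cannot be told apart. Label from 25 ng of total RNA was hybridized to 1 single-color exon array per sample, and the question was which genes differ between turns. Signals below are scaled fluorescence intensities on an arbitrary linear scale, differences are log2 values from limma fitted over all 12 arrays, and a gene was called when its Benjamini-Hochberg adjusted p over all 19505 genes was under 0.05.

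Chemokines are small secreted proteins that guide cells by binding receptors that couple to inhibitory G proteins. The CC, CXC and CX3C families are named for the spacing of their first cysteines. Homeostatic members such as Cxcl12, Cxcl13, Ccl19 and Ccl25 place cells in resting tissue, and inflammatory members such as Ccl2, Ccl5 and Cxcl10 rise upon injury, infection or interferon. In the cochlea, resident macrophages of the lateral wall, spiral ganglion and basilar membrane carry Cx3cr1, the receptor of the membrane-bound ligand Cx3cl1.

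The 75th percentile of the signal ran from 535 to 722 before scaling, and 77.4% to 81.4% of probe spots were well above background on an array. Defining markers of the labelled tissue were above background: 6 of 6 hair cell, 6 of 6 neuron and 5 of 5 stria vascularis genes. Of the marker lists, 6 of 6 hair cell, 5 of 6 neuron and 5 of 5 Schwann cell genes were called with the apex above the base, while 11 of 15 macrophage, 4 of 4 melanocyte, 4 of 5 stria, 4 of 6 endothelium and 3 of 5 pericyte genes were called the other way. Over all genes, 17.6% were called with the apex higher and 21.6% with the base higher. One endothelial and 1 pericyte gene had the apex above the base, and the calls were 2 up and 1 down in the apex for 5 fibroblast genes, 1 and 1 for 5 bone genes and 2 and 1 for 4 supporting cell genes. Lists of T cells (8 genes), NK cells (5) and red cells (4) held no call between apex and base in limma, with 1, 0 and 0 genes at an unadjusted p under 0.05. B cells had 1 of 7 higher in the apex, and dendritic cells 1 of 4 in each direction. All arrays of a turn lay on 1 slide of their own, so slide and turn cannot be told apart. Scaling to spike-in probes instead of the 75th percentile moved the median of all genes, apex minus base, from -0.04 to -0.52, and the differences below are relative to the bulk of the genes on the array.

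Most members had at least 1 probe well above background in every turn. In 41 of the 51 members, 30 ligands and 11 receptors, some probe stood well above background on each of the 4 arrays of a turn. The other 10 were Ccl8, Cxcl15, Cxcl17, Ccr1, Ccr2, Ccr3, Ccr4, Cxcr1, Cxcr2 and Cxcr5, with signals of 4.93 to 44.7. Of their 24 probes, 16 were well above background on no array. Among the 41, Ccl20, Ccl22 and Ccl26 counted through their first probe alone, the others being well above background on no array. For Ccl26 the apical means of the probes were 557, 5.28 and 6.36.

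Between apex and base, 14 of 51 members were called, against 39.2% of all genes. The apex was higher for 3, Cxcl13, Ccr6 and Ccl19, with 17.6% of all genes called in that direction. The base was higher for 11, namely Cxcr7, Cxcl12, Cxcl16, Ccl25, Ccl2, Ccl7, Ccl11, Ccl5, Ccl3, Cx3cr1 and Cxcl10, against 21.6% of all genes. Thus 11 of 33 ligands and 3 of 18 receptors were called, all of them measured. The median difference, apex minus base, was -0.21 over the 51 members and -0.04 over all genes. The higher mean was in the base for 41 members, called or not, some of them not well above background. With only probes well above background the number was 32. The share of all genes with the higher mean in the base was not counted. With spike-in scaling 44 members were called, 2 with the apex above and 42 with the base above, which is 95.5% of calls against 78.6%, and 77.5% of all genes were called. Without basal replicate 2 the count was 9.

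**Figure D1:**
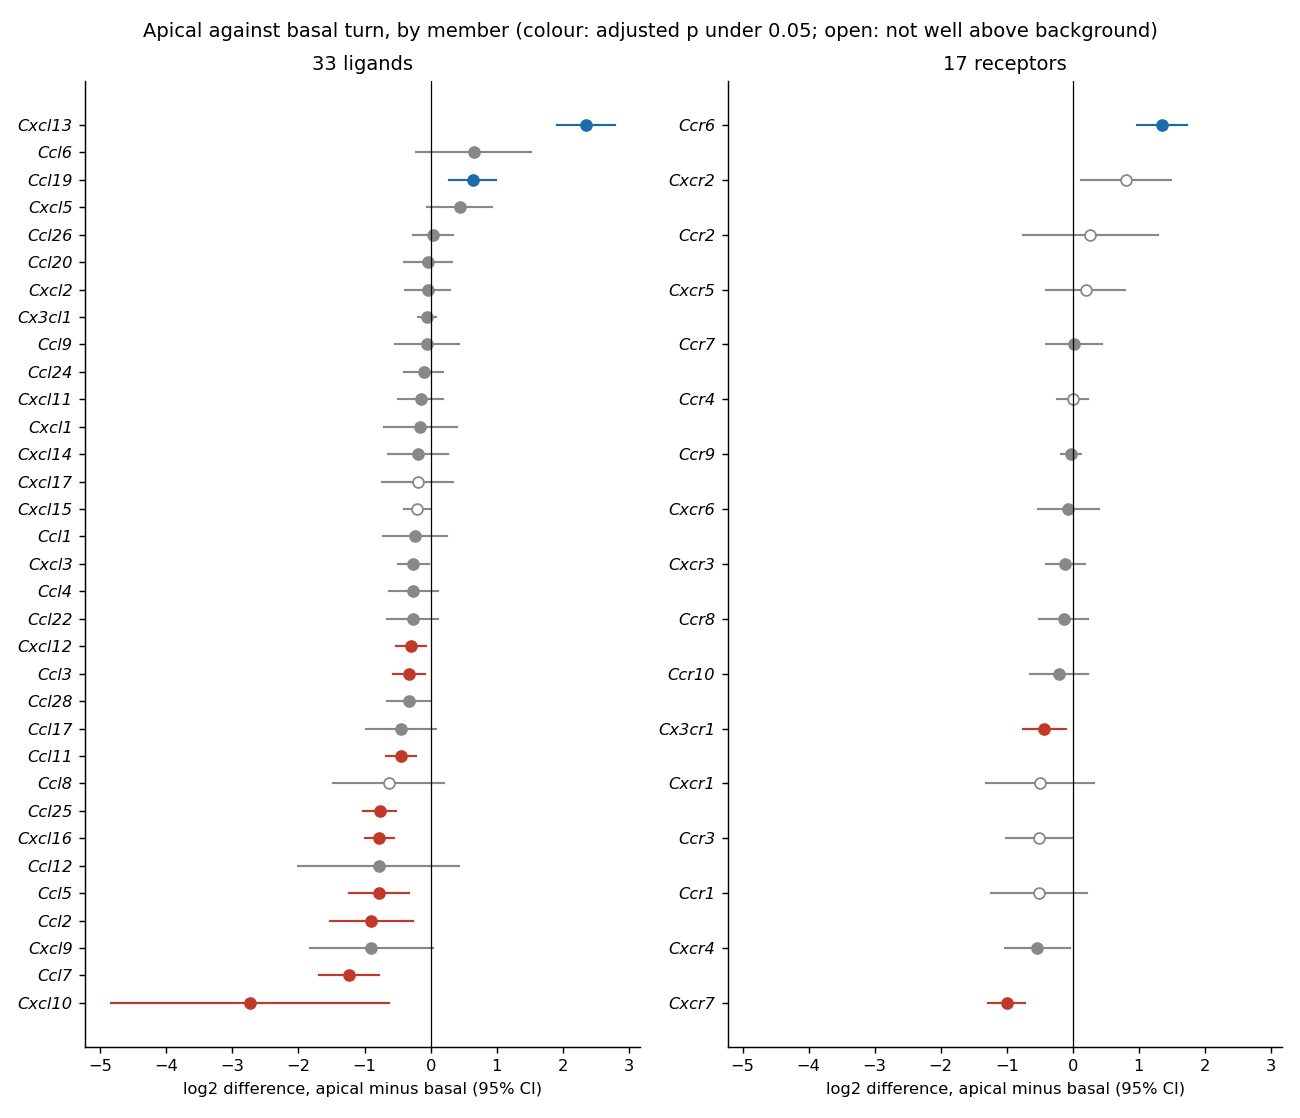
Log2 difference, apical minus basal, with its 95% confidence interval for 33 ligands (left) and 17 receptors (right), each sorted by the difference, from 4 arrays a turn. Colored points had an adjusted p under 0.05 (blue higher in the apex, red higher in the base), open points are the 10 members not well above background, and Cxcl13 and Ccr6 stand furthest to the right while Cxcl10 has the widest interval, -4.84 to -0.63.

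With the same threshold on the adjusted p, 8 of the 14 called members stayed called in the same direction under all 26 alternative settings tried: Cxcl13, Ccr6, Cxcr7, Cxcl16, Ccl25, Ccl7, Ccl11 and Ccl5. The settings include a fit to the deposited value table, which holds the same intensity values, so that outcome was fixed in advance. The call was lost in 13 settings for Cxcl10, 12 for Cxcl12, 10 for Ccl3, 9 for Ccl2, 7 for Cx3cr1 and 2 for Ccl19. A stricter rule with a 2-fold minimum, given further on, kept fewer.

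**Figure D2:**
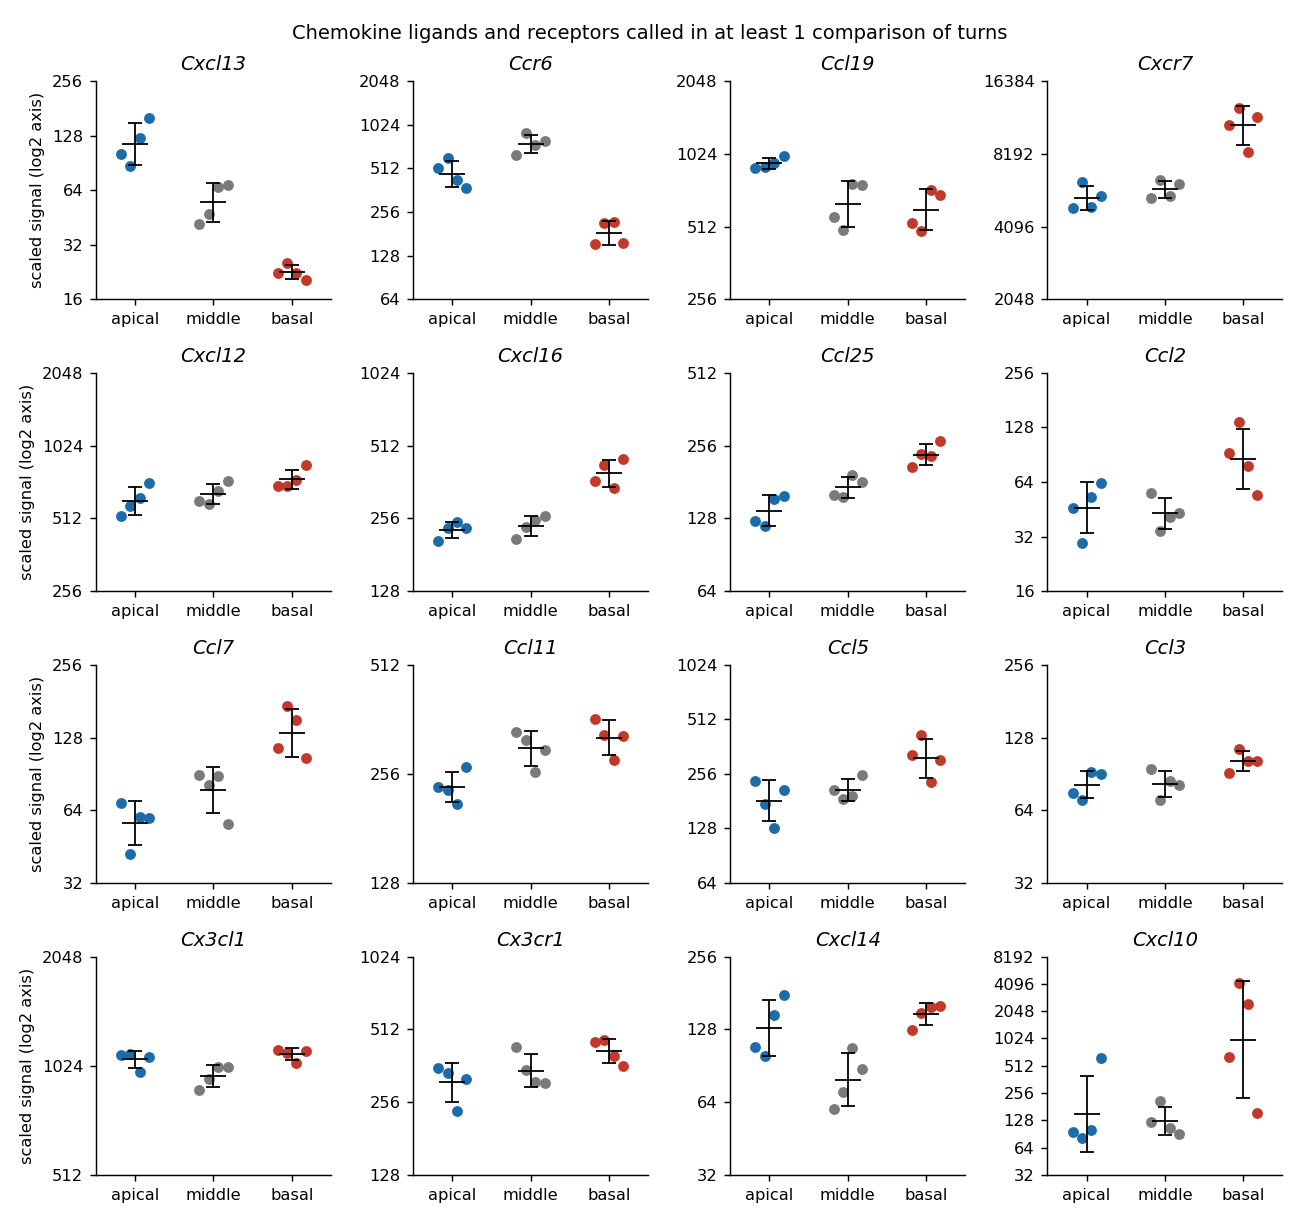
Scaled signal (log2 axis) on each of the 4 arrays of the apical, middle and basal turn for the 16 measured members called in at least 1 comparison of turns; bars show the mean of the log2 values and 1 SD. Cxcl13 falls stepwise from apex to base, Ccr6 is lowest in the base and highest in the middle turn, Cxcr7 and Cxcl16 are higher in the base alone, and the 4 basal values of Cxcl10 span 154 to 4175.

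Cxcl13, the B cell attractant of lymphoid follicles, fell stepwise along the cochlea. Its 4 apical arrays read 101, 87.3, 125 and 160.0. The middle turn read 41.8, 47.2, 66.7 and 68.2, and the base 22.3, 25.3, 22.5 and 20.5. No value of a turn overlapped with another turn. The apex was 5.1-fold above the base, a log2 difference of 2.35 ± 0.20 (SE) with an adjusted p of 9.6e-06. Middle against base gave 1.28 ± 0.20 (SE) (adjusted p = 0.0018), and apex against middle 1.07 ± 0.20 (SE) (adjusted p = 0.0087), so Cxcl13 was called in all 3 comparisons. Its receptor Cxcr5 was not well above background in any turn, with signals of 7.03 to 16. Of 7 B cell genes 1, Cd79a, was called between apex and base, at 0.55, and the median of the list was 0.13. The part of B cells in the Cxcl13 difference was not tested.

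Cxcl13 was read by 4 probes of 60 bases, which did not move by the same amount. Of these, 1 with a small and 1 with a large difference are shown, both in the coding sequence, on the plus strand of mm9 at chr5:96387702-96387761 and chr5:96388921-96388980. No base is marked.
Cxcl13 probe at transcript position 144: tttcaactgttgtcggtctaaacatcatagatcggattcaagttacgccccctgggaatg
Cxcl13 probe at transcript position 247: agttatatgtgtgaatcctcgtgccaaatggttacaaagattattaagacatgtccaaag
The probe at position 144 read 168, 157, 172 and 228 in the apex and 109, 117, 93.2 and 88.5 in the base, a log2 difference of 0.83 ± 0.12 (SE) (adjusted p over all probes = 6.1e-04). The probe at position 247 read 66.9, 63.6, 99.99 and 138 in the apex, 11.8, 23.6, 33.7 and 25.7 in the middle and 5.98, 6.42, 5.57 and 5.94 in the base. On none of the basal arrays was it well above background. The apex was 13.2-fold above a floor set by the dimmest probes that were well above background on each basal array. This floor is not a strict limit. Some probes that were not well above background read higher, such as 24.6 for Ccl7 at position 183 on basal replicates 2 and 3. The last probe, at position 935, gave 12.7-fold above the floor in the same way, and the first, at position 5, a log2 difference of 0.98 ± 0.21 (SE). All 4 probes were called.

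Ccr6, a receptor of lymphocytes and dendritic cells, was higher in both upper turns than in the base. Apical arrays read 515, 599, 425 and 375, middle arrays 628, 893, 739 and 787 and basal arrays 155, 216, 219 and 157. The order of the turns was middle, apex, base, without overlap between any pair. Middle was 4.11-fold above base (log2 difference 2.04 ± 0.17 (SE), adjusted p = 4.2e-05), the apex 2.56-fold (1.35 ± 0.17 (SE), adjusted p = 1.4e-04), and the apex lay below the middle turn by -0.68 ± 0.17 (SE) (adjusted p = 0.029). A single probe read Ccr6, on chr17, so no second probe could be set beside it. Its chemokine ligand Ccl20 read 10.3 to 20.9 over the 12 arrays and was called in no comparison, with a 95% interval of -0.41 to 0.32 for apex minus base. Of its 4 probes, 1 was well above background in each turn. That probe gave -0.22 ± 0.08 (SE) for apex minus base (adjusted p over all probes = 0.065). With only probes well above background in the fit, Ccl20 was called between apex and base.

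Ccl19, which draws T cells and dendritic cells toward lymph nodes, was the third member higher in the apex. It read 898, 899, 939.9 and 1007 in the apex, 561, 495, 766 and 764 in the middle and 529, 492, 723 and 695 in the base. The lowest apical value was above the highest of both other turns. The log2 difference was 0.64 ± 0.16 (SE) relative to the base (adjusted p = 0.0088) and 0.56 ± 0.16 (SE) relative to the middle turn (adjusted p = 0.048), and each of its 4 probes was called against the base, at 0.50 to 0.75. Spike-in scaling left 0.15 with an adjusted p of 0.46, and without apical replicates 2 and 4 the adjusted p was 0.058. Its receptor Ccr7 read 30.5 to 54.7 and differed by 0.02 ± 0.19 (SE) between apex and base (95% interval -0.40 to 0.44).

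Cxcr7, the receptor now named Ackr3, which takes up Cxcl12 without signaling through G proteins, was higher in the base. Basal arrays read 10772, 12690.4, 8329 and 11666, with 5394, 6402, 5495 and 6139 in the middle and 4908, 6272, 4926 and 5488 in the apex. All 4 basal values lay above all 8 others, and apex and middle overlapped. The base was 2.00-fold above the apex (log2 difference, apex minus base, -1.0 ± 0.13 (SE), adjusted p = 1.5e-04) and 1.84-fold above the middle turn (adjusted p = 0.0012). Cxcr7 too was read by 1 probe, on chr1.

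Cxcl12, the ligand shared by Cxcr7 and Cxcr4 that retains blood progenitors in marrow, differed less. It read 525, 576, 622 and 716 in the apex, 607, 589.9, 666 and 731 in the middle and 700.0, 698, 740.4 and 849 in the base, with overlap between all turns. The log2 difference between apex and base was -0.30 ± 0.11 (SE) (adjusted p = 0.044), and the adjusted p was above 0.05 in 9 of the 12 fits that each left out 1 array, up to 0.12 without apical replicate 1. Its 6 probes disagreed. The 2 probes that the array assigns to transcript NM_001012477 read 79.9, 107.3, 114 and 103 in the apex and 157, 172, 175 and 219.5 in the base (log2 difference -0.84 ± 0.13 (SE), adjusted p over all probes = 7.6e-04), and 4008, 4617, 4539 and 6237 against 7318, 7675, 7011 and 9457 (-0.71 ± 0.14 (SE), adjusted p = 0.003). Neither pair of groups overlapped. The 4 probes assigned to NM_021704 gave -0.03, -0.19, -0.26 and 0.25, none of them called, and with the median over probes the gene difference was -0.00 (adjusted p = 0.99). The signaling receptor Cxcr4 read 32.6, 29.9, 39.8 and 41.5 in the apex and 65.2, 60.2, 30.3 and 60.2 in the base, where replicate 3 stood apart below the others. Its difference of -0.54 ± 0.22 (SE) was not called (adjusted p = 0.078). Of its 2 probes, the one well above background on all arrays gave -0.61 ± 0.18 (SE) (adjusted p over all probes = 0.023), and the gene was called without basal replicate 3, with or without basal replicate 2, and with quantile normalization, median or spike-in scaling, normexp, 16 added before log2 or probes above background only.

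Cxcl16, a membrane-bound ligand that also binds oxidized lipoprotein, was higher in the base in every probe. Basal arrays read 365, 425, 341 and 452, the middle turn 211, 235, 252 and 262 and the apex 206, 233, 248 and 234. The base lay above both other turns without overlap, and the log2 differences were -0.78 ± 0.10 (SE) for apex minus base (adjusted p = 1.7e-04) and -0.72 ± 0.10 (SE) for middle minus base (adjusted p = 9.7e-04). All 5 probes were called, within -0.85 to -0.71. Its receptor Cxcr6 read 34.9 to 81.4, was well above background on all arrays of the apex and of the base only, and differed by -0.07 ± 0.21 (SE) (95% interval -0.53 to 0.40).

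Ccl25, which brings T cells to thymus and gut, was highest in the base. It read 125, 119, 154 and 158 in the apex, 159.9, 157, 194 and 182 in the middle and 209, 236, 232 and 266 in the base. The base lay above both other turns, and apex and middle overlapped slightly. The difference, apex minus base, was -0.77 ± 0.11 (SE) (adjusted p = 3.5e-04), middle minus base -0.45 ± 0.11 (SE) (adjusted p = 0.018), and 4 of 4 probes were called between apex and base, at -0.88 to -0.53. Ccr9, the receptor of Ccl25, read 486 to 593 on the 12 arrays. Its difference was -0.03 ± 0.07 (SE) with a 95% interval of -0.18 to 0.12.

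**Figure D3:**
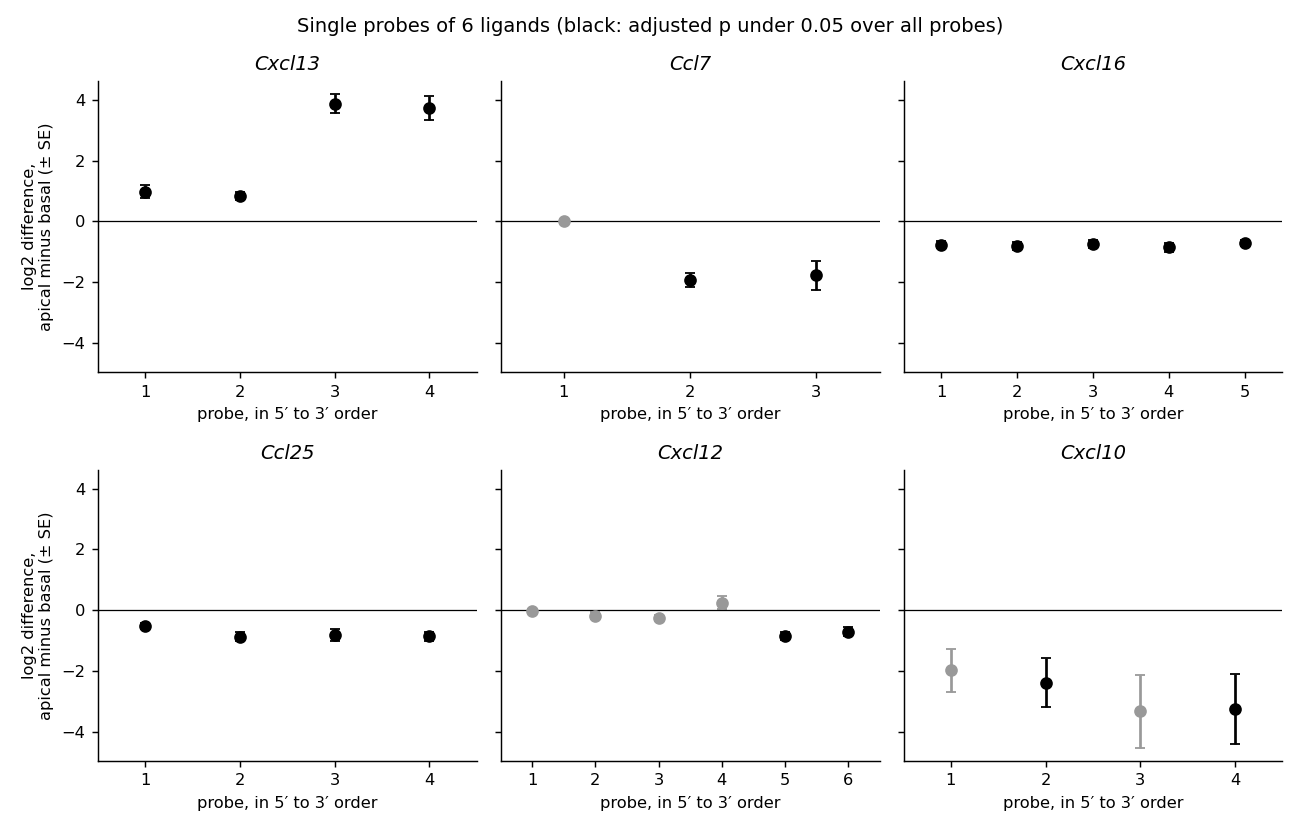
Log2 difference, apical minus basal, with its SE for each probe of 6 ligands, in order of transcript position. Black points had an adjusted p under 0.05 over all probes. The Cxcl12 probes are assigned to 2 transcripts, so their order mixes positions in both. The 5 probes of Cxcl16 and the 4 of Ccl25 lie at like values. The first probes of Cxcl13 and Ccl7 lie nearer to 0 than those at the 3′ end, and the first of Cxcl12 lies nearest to 0 of its probes. The last 2 probes of Cxcl13 were not well above background in the base and the second of Ccl7 on no array, so their points are fitted values only.

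The monocyte attractants Ccl2 and Ccl7, which act through Ccr2, were higher in the base. Ccl2 read 46.3, 29.6, 52.9 and 62.9 in the apex, 55.4, 34.5, 41.2 and 43.5 in the middle and 92.2, 138, 78.6 and 54.6 in the base. The turns overlapped, since basal replicate 4 lay below apical replicate 4. The log2 difference was -0.89 ± 0.29 (SE) against the apex (adjusted p = 0.029) and, for middle minus base, -1.0 ± 0.29 (SE) (adjusted p = 0.031). For apex against base the call was lost without apical replicate 1 or 2 or basal replicate 1 or 2, with an adjusted p of up to 0.081, and with the sample number as a block (adjusted p = 0.062). It was also lost with only the 8 arrays of both turns (0.056), with the median over probes (-0.37, 0.14), without apical replicates 2 and 4 (0.086) and without basal replicates 2 and 3 (-0.62, 0.18). Of its 3 probes, 1 was called.

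Ccl7 read 68.5, 42, 59.9 and 59.7 in the apex, 89.8, 81.7, 88.8 and 56.4 in the middle and 116, 173, 151 and 105 in the base. The base lay above both other turns, with differences of -1.24 ± 0.21 (SE) for apex minus base (adjusted p = 7.3e-04) and -0.78 ± 0.21 (SE) for middle minus base (adjusted p = 0.021). Both probes shown are coding and on the plus strand of mm9, at chr11:81859286-81859345 and chr11:81860055-81860114, and they are set side by side because the first did not move with the second. Capitals mark the start codon.
Ccl7 probe at transcript position 72: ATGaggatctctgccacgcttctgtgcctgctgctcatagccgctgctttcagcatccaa
Ccl7 probe at transcript position 183: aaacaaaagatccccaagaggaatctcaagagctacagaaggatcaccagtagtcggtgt
The start codon probe read 1290.1 to 1422 in the apex and 1295 to 1407 in the base (log2 difference -0.00 ± 0.07 (SE)). The probe at position 183 read 5.66, 5.36, 5.3 and 5.19 in the apex and 16.1, 24.6, 24.6 and 18.4 in the base, and was not well above background on any of the 12 arrays, so no fold is given for it. The probe at position 339 was well above background on 2 apical and 4 basal arrays and read 42.3, 9.98, 28.5 and 31.7 against 74.3, 149, 99.9 and 47.4 (-1.78 ± 0.47 (SE), adjusted p over all probes = 0.014). The Ccl7 difference therefore rested on 2 dim probes.

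The remaining ligands of Ccr2 were not called. Ccl12 read 121, 65.2, 77.3 and 329.5 in the apex and 149.7, 358, 257 and 127 in the base, with basal replicate 2, apical replicate 4, middle replicate 1 (273) and basal replicate 3 the highest of the 12 arrays. Ccl8 and Ccr2 itself were not well above background, and Ccr2 had its highest value, 37.4, on apical replicate 4.

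Ccl11, the eosinophil attractant eotaxin, was lowest in the apex. It read 236, 231, 212 and 268 in the apex, 334, 318, 259 and 298 in the middle and 363, 329, 279 and 325 in the base. Apex and base did not overlap. Apex minus base was -0.45 ± 0.10 (SE) (adjusted p = 0.0049), apex minus middle -0.35 ± 0.10 (SE) (adjusted p = 0.049), and 2 of 3 probes were called between apex and base. Ccr3, its receptor, was not well above background, and Ccl24, another ligand of it, read 21.8 to 33.4 and was not called.

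Of the inflammatory ligands Ccl3, Ccl4 and Ccl5, Ccl5 and Ccl3 were higher in the base. Ccl5, a product of T cells and of interferon-stimulated cells, read 232, 176, 128 and 209 in the apex, 208, 186, 192 and 254 in the middle and 324, 422, 229.8 and 304 in the base, where basal replicate 3 overlapped with the apex. Its difference was -0.78 ± 0.21 (SE) (adjusted p = 0.011), and 3 of 3 probes were called. Ccl3 read 70.8 to 91.8 in the apex and 91.6 to 115 in the base, barely overlapping, with -0.33 ± 0.11 (SE) (adjusted p = 0.037). None of its 3 probes was called by limma alone, with 0 at an unadjusted p under 0.05, and 10 of 26 settings lost the gene's call, among them the replicate block (adjusted p = 0.058) and leaving out apical replicate 1 or 2 or basal replicate 2, 3 or 4 (up to 0.11). Ccl4 read 294 to 499.6, with its probe at position 210 well above background on no array, and was not called. Ccr1, a receptor of Ccl3 and Ccl5, was not well above background.

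Cx3cr1, the receptor that marks resident macrophages and microglia, was higher in the base. It read 355, 339, 236 and 320.5 in the apex, 431, 348, 309 and 308 in the middle and 455, 462, 397 and 363 in the base, where no value overlapped with the apex. The difference was -0.43 ± 0.15 (SE) (adjusted p = 0.036), from 1 probe on chr9. The call was lost without apical replicate 3 or 4 or basal replicate 1, 2 or 3, with an adjusted p of up to 0.095 without basal replicate 2. Beside it, 11 of 15 macrophage genes were called higher in the base, against 21.6% of all genes. The summed level of the list was 7969 to 11869 in the apex and 11380.4 to 14091 in the base. The complement genes C1qa, C1qb and C1qc gave -0.61, -0.62 and -0.43, and Aif1 -0.52. The share of macrophage RNA in the Cx3cr1 difference, and in those of Ccl2, Ccl3 and Ccl7, was not tested. Cx3cl1, the ligand, which neurons and endothelium carry on their surface, read 983 to 1105 in the apex and 1041 to 1131 in the base (-0.05 ± 0.06 (SE), 95% interval -0.18 to 0.09). Against the base, the middle turn was lower by a log2 difference of -0.20 ± 0.06 (SE) (adjusted p = 0.046), and none of its 3 probes was called by limma alone, with 2 at an unadjusted p under 0.05.

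Cxcl10, an attractant of activated T cells and natural killer cells that interferons induce, had the widest range of all members. The apex read 96.1, 82.6, 99.9 and 629, the middle turn 123, 209.7, 105 and 91.4 and the base 633, 4175, 2433 and 154. High values sat on basal replicates 1, 2 and 3 and on apical replicate 4, while basal replicate 4 lay within the range of the other turns. The highest array read 50.6-fold above the lowest. The log2 difference was -2.74 ± 0.96 (SE) for apex minus base (adjusted p = 0.041) and -2.99 ± 0.96 (SE) for middle minus base (adjusted p = 0.047). Without basal replicates 2 and 3 apex minus base was -1.06 (adjusted p = 0.40), with the replicate block the adjusted p was 0.075, and the call was lost in 10 of 12 fits that left out 1 array, up to 0.12 without basal replicate 2. It held without apical replicate 4 and without basal replicate 4.

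The 4 probes of Cxcl10 gave -3.33 to -1.98. The 2 coding probes shown are on the minus strand of mm9, at chr5:92777115-92777174 and chr5:92776831-92776890, with no base marked, and both followed the same arrays.
Cxcl10 probe at transcript position 168: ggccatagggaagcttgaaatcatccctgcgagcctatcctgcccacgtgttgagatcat
Cxcl10 probe at transcript position 258: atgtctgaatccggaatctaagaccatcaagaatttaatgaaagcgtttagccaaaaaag
The probe at position 168 read 91.9, 82.2, 103 and 430.1 in the apex and 440.1, 2591, 1528 and 144 in the base. The probe at position 258 read 31.8, 29.9, 35.9 and 413 in the apex and 427, 3003, 1834 and 60.7 in the base. Apical replicate 4 and basal replicates 1, 2 and 3 were the high ones for both.

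A list of 11 interferon-response genes was read beside Cxcl10, array by array. Each of the 11 had its highest apical value on apical replicate 4 and its highest basal value on basal replicate 2, and 10 of 11 had their highest middle value on middle replicate 1. In the base, 9 of 11 had the same order of arrays as Cxcl10. Isg15, a ubiquitin-like protein, read 1217, 576, 767 and 3863 in the apex, 4692, 1495, 829 and 1075 in the middle and 2636, 6817, 2980.0 and 860.3 in the base. Irf7, a transcription factor of the interferon response, read 393, 249.7, 249 and 627 in the apex, 976, 345, 344 and 434 in the middle and 711, 2810.2, 755 and 369 in the base. Middle replicate 1 was high for these genes while Cxcl10 was at 123 there. The summed level of the list ran from 2555 to 11926 in the apex, 3281 to 11491 in the middle and 3443 to 20948 in the base, so all turns overlapped. None of the 11 was called by limma between apex and base, 3 had an unadjusted p under 0.05, and the median difference was -0.96.

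**Figure D4:**
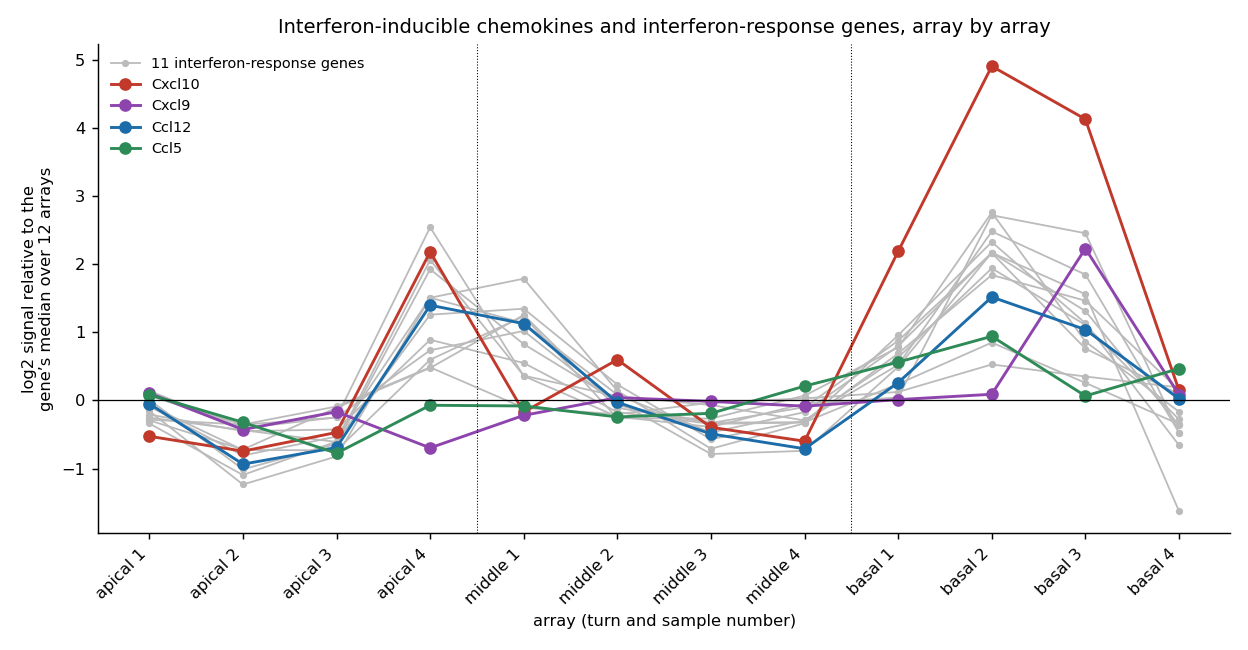
Log2 signal of Cxcl10, Cxcl9, Ccl12 and Ccl5 and of 11 interferon-response genes (gray) on each of the 12 arrays, relative to each gene's median over the arrays. All gray lines lie above their median on apical replicate 4 and basal replicates 1 to 3, as Cxcl10 and Ccl12 do, Ccl12 and most gray lines also rise on middle replicate 1, and Cxcl9 rises on basal replicate 3.

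The 250 bases before the Cxcl10 start are printed since its promoter is known to answer to interferon and NF-kB. The sequence is from RefSeq, build GRCm38.p6, minus strand, chr5:92348890-92349139, written in the direction of the gene. Capitals mark a match to the core of the interferon-stimulated response element, GAAA, any 2 bases and GAAA, and one to an NF-kB-like motif, GGGA, any 2 bases and TTCC. They do not overlap, and the first begins 213 and the second 159 bases before the start.
Cxcl10 upstream region: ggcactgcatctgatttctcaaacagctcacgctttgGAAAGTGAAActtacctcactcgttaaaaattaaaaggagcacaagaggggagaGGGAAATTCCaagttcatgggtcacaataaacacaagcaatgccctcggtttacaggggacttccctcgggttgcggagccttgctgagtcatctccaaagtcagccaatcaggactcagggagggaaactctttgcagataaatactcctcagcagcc
Both strands of the 300 base windows around 32851 starts were searched. The first motif was found in 3.44% of all windows and the second in 1.47%. Of 51 members, 36 were matched to the table, Cxcr7 as Ackr3, and the first motif was in the windows of Cxcl10, Cxcl14 and Ccl19 and the second in those of Cxcl10, Cxcl1, Cxcl2, Cxcl3, Ccl1 and Ccr3. Of the 11 interferon-response genes, 8 were matched and 6 held the first motif. These are letter matches to the patterns given, so sites spelled otherwise stay unmarked, and binding was not measured.

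The other ligands of Cxcr3, the receptor of Cxcl10, were not called. Cxcl9 read 14.1 to 24.6 in the apex and 23, 24.3, 107.2 and 24.2 in the base, with basal replicate 3 alone high. Cxcl11 read 81.9 to 124 on all arrays. Cxcr3 read 50.4 to 97.9 and differed by -0.12 ± 0.13 (SE) (95% interval -0.41 to 0.18) between apex and base and by -0.40 ± 0.13 (SE) between middle and base (adjusted p = 0.054). Middle against base, it was called with quantile normalization, median or spike-in scaling, 16 added before log2 or probes above background only. The same held without middle replicate 2 or 3 or basal replicate 3. Apex against base, it was called with normexp or spike-in scaling. The T cell and NK cell lists lacked a call between apex and base.

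Between middle and base, 10 of 51 members were called against 20.9% of all genes. The middle turn was higher for Cxcl13 and Ccr6, against 11.7% of all genes in that direction, and the base was higher for 8, against 9.21%. These were Cxcr7, Cxcl16, Ccl25, Ccl7, Ccl2, Cxcl10, Cx3cl1 and Cxcl14. The median difference was -0.10 over the members and 0.04 over all genes. Without basal replicate 2 the count was 6, and Ccl2, Ccl7, Cx3cl1 and Cxcl10 were no longer called. Over the 12 fits that left out 1 array, the call was lost in 10 for Cxcl10, in 8 for Cx3cl1, in 5 for Ccl2, in 2 for Ccl25 (middle replicate 1 and basal replicate 4) and in 1 for Ccl7. With the sample number as a block, Ccl2, Cx3cl1 and Cxcl10 were not called between middle and base, and Ccl5, Ccr10 and Cxcl12 were. With spike-in scaling the count was 22, of which 20 were higher in the base, 90.9% against 80.0%, and 37.6% of all genes were called. Cxcl14, a ligand made by epithelia, was lowest in the middle turn. It read 108, 99.6, 147 and 177 in the apex, 59.8, 70.7, 106.8 and 87.6 in the middle and 127, 149, 158 and 159.7 in the base. Middle and base did not overlap, at -0.90 ± 0.21 (SE) (adjusted p = 0.012), whereas apex and base overlapped and differed by -0.19 ± 0.21 (SE) (95% interval -0.65 to 0.26). Of its 4 probes 2, at positions 488 and 1693, were called between middle and base, while the first, at position 362, gave -0.04.

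Apex and middle differed least. Of the members 6 were called against 12% of all genes. Cxcl13, Ccl19 and Cxcl14 were higher in the apex, against 4.42% of all genes, and Ccr6, Ccl11 and Cxcl15 were higher in the middle turn, against 7.59%. Cxcl15 was not well above background in either turn and is given no fold. Cxcl14 had 0.71 ± 0.21 (SE) (adjusted p = 0.049). The count was 1 without middle replicate 2, 2 without any one of the apical arrays or of middle replicates 1 and 4, and 3 without basal replicate 4. Only Cxcl13 was called in all 12 of these fits, and the call was lost in 11 for Cxcl14, in 9 each for Ccl19 and Ccl11 and in 5 for Ccr6. With spike-in scaling the count was 14, of which 13, or 92.9%, were higher in the middle turn, against 3 of 6 with the 75th percentile, 4 of 6 with quantile normalization, 5 of 7 with normexp and 3 of 5 with 16 added before log2. Spike-in scaling called 40.7% of all genes there.

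A stricter rule, an adjusted F test p under 0.05 with turn means at least 2-fold apart, kept fewer members. Between apex and base it kept 4, Cxcl13, Ccr6, Ccl7 and Cxcl10, against 4.39% of all genes. Ccl7 passed with its probe at position 183 in the mean, a probe well above background on no array. Between middle and base 3 passed, Cxcl13, Ccr6 and Cxcl10, against 2.66%, and between apex and middle Cxcl13 alone, against 0.436%. Cxcr7 between apex and base and Ccl2 between middle and base fell just short, both at 2.00-fold when rounded.

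Of the 41 measured members, 25 were called in no comparison, 17 ligands and 8 receptors. Their differences between apex and base ran from -0.90 for Cxcl9 to 0.66 for Ccl6, and for 21 of 25 the 95% interval lay within 1 log2 unit of 0. The 21 include Cxcl5, which was well above background in the apex alone. They also include Ccl20, Ccl22 and Ccl26, where every probe but the first was well above background on no array. For such members the interval bounds the averaged signal and not the transcript. Ccl6, a myeloid CC ligand, read 42.3, 66.3, 23.2 and 104 in the apex, 22.8, 36.8, 15.6 and 25.5 in the middle and 38.4, 33.4, 28.4 and 30.03 in the base. Ccl9, a related ligand, read 50, 70.0, 69.2 and 106 in the apex. Both were highest on apical replicate 4, as were Ccr2 and the neutrophil receptor Cxcr2, at 10.1, 16.2, 7.82 and 27 in the apex and 7.3 to 8.74 in the base. On that array the 9 neutrophil and marrow genes summed to 37165, against 4845, 16414 and 1144 on apical replicates 1 to 3, 900.2 to 8766 in the middle and 1265 to 2275 in the base. One of the 9, Ltf, was called between apex and base, and the part of marrow RNA in these members' values was not tested.

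The neutrophil attractants Cxcl1, Cxcl2 and Cxcl5 were called in no comparison. Cxcl1 read 17.9 to 38.8, and Cxcl2 76.8 to 127. Their differences between apex and base were -0.15 ± 0.25 (SE) and -0.04 ± 0.15 (SE), with 95% intervals of -0.70 to 0.40 and -0.38 to 0.29. Cxcl5 read 5.64 to 14 and was well above background in the apex alone, so no difference is given for it. Ccl28, Ccl17, Ccl22 and Ccl1 were not called either. Ccl28 differed by -0.33 ± 0.15 (SE) and its receptor Ccr10 by -0.21 ± 0.20 (SE). All 3 Ccl28 probes were well above background on every array. The one at position 174 gave -0.60 ± 0.19 (SE) (adjusted p over all probes = 0.029). Those at positions 58 and 3629 gave 0.03 and -0.41 and were not called. Ccl28 was called between apex and base with quantile normalization, median or spike-in scaling, the replicate block or without basal replicate 4. Ccl17 and Ccl22, ligands of Ccr4, gave -0.45 ± 0.24 (SE) and -0.27 ± 0.18 (SE), while Ccr4 was not well above background. The probes of Ccl17 and Ccl22 that were well above background on all arrays gave -0.02 ± 0.07 (SE) and -0.05 ± 0.07 (SE). Both gene differences therefore rested on dim probes. Ccl1 and its receptor Ccr8 gave -0.24 ± 0.22 (SE) and -0.14 ± 0.17 (SE).

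Chemokine-system genes whose names fall outside the pattern were read from a list, of which 14 of 22 were on the array. Between apex and base 7 of the 14 were called, the apex leading in 4 and the base in 3, against 39.2% of all genes called there. Darc, an atypical receptor that takes up CC and CXC ligands, read 1135, 1015, 1152 and 1175 in the apex and 386, 180.0, 764 and 256 in the base (1.71 ± 0.37 (SE), adjusted p = 0.0034). Rarres2, the precursor of chemerin, gave 0.85 ± 0.07 (SE) (adjusted p = 1.1e-05), and Mif, which binds Cxcr2, Cxcr4 and Cd74, -0.77 ± 0.07 (SE) (adjusted p = 1.8e-05). Ccl27a and Xcl1 were higher in the apex by 0.18 and 0.33, Ccrl2 and Cd74 higher in the base by -0.47 and -0.54. Under these receptors, 7 of 20 signaling genes were called, 3 of them with the apex on top and 4 with the base, a share near that of all genes. The receptor kinases Adrbk1, Grk5 and Grk6 gave -0.37, -0.65 and -0.17, and the migration adaptor Elmo1 0.92. Plcb2, Ptk2b and Vav1 gave 0.61, 0.51 and -0.21, while the G protein subunits Gnai1, Gnai2 and Gnai3 were between -0.01 and 0.06 and not called. Of 13 NF-kB and cytokine genes 1, Tnfaip3, was higher in the apex at 0.50, and 4, Relb, Nfkb2, Il1b and Icam1, were higher in the base at -0.51, -0.24, -0.47 and -0.40, again near the share of all genes.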

How the data were processed

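The members and gene lists were chosen with earlier results of these data known. The authors labelled total RNA with cyanine 3, hybridized it to single-color exon arrays and extracted spots with Agilent Feature Extraction 10.7.3.1. The deposited intensity used here, the processed signal, is background-subtracted and not normalized between arrays. The deposited value table held the same intensity values. Control spots (7914 of 180880) and 119 probes without an unflagged spot were left out. Each array was scaled to a common 75th percentile of 641, the median over arrays, log2 values were averaged over the probes of a gene name, and turns were compared in limma 3.58.1 (R 4.3.3), 4 arrays each, with Benjamini-Hochberg adjustment over 19505 genes or 165865 probes. The limma step was tested on simulated data.

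Members named with values were those called in any comparison and measured in at least 1 turn, and both sides of known ligand and receptor pairs. Of the other gene lists, called genes were named. Lists covered cell type markers, chemokine-system genes outside the name pattern, receptor signaling, interferon response, and NF-kB and cytokine genes. Alternatives changed scaling, background correction, probe choice and averaging, pseudocount (16), flags, variance model, arrays in the fit, replicate block and call rule. Scaling to spike-ins and the fits without apical replicates 2 and 4 or basal replicates 2 and 3 were added after seeing the data. No probe of a member shared 30 bases with a probe of another gene name. Precision is limited by 4 arrays a turn, and p-values measure the spread between these samples. Probe positions are mm9 as in the files, and no probe was remapped. The values of 1 receptor are not reported here, and it is counted in the totals.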

Additional observations from a re-analysis of the deposited data

Results flagged for a closer look

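In each turn, the 4 values of every measured member were searched for an array that stood apart from the other 3, and 12 of 123 groups held one, where chance gives about 1 in 20. Cxcl10 was at 629 on apical replicate 4 with the other apical arrays at 82.6 to 99.9, and Cxcl9 at 107.2 on basal replicate 3 with the others at 23.0 to 24.3. Cxcr4 was low on basal replicate 3, at 30.3 against 60.2 to 65.2, and on middle replicate 3, at 44.5 against 57.2 to 59.7. Ccl4 was high on apical replicate 3, at 367 against 294 to 302, and on middle replicate 2, at 499.6 against 323 to 339. Gene values average all probes of a gene, dim ones too. The Ccl4 probe at position 210, well above background on no array, read 11.4 and 25.8 there, against 5.57 to 7.69. The probe at position 79 read 13115 and 13746 there, against 13392 to 14506 on the other apical and middle arrays. The probe at position 526 read 330 and 352, against 306 to 353. Cxcl2 was high on apical replicate 1 at 127 against 76.8 to 83.6, and Cxcl11 on apical replicate 3 at 117 against 81.9 to 85.6. Low single arrays were found for Cx3cl1 on apical replicate 3 (983 against 1085 to 1105), Ccl17 on basal replicate 3 (39.2 against 67.6 to 74.7), Ccl9 on basal replicate 1 (60.02 against 76.8 to 80.3) and Ccr8 on basal replicate 2 (63.4 against 84.1 to 87.9).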

How the results depend on the processing

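Of 416 differences between apex and base, 16 members under 26 settings, 361 kept their direction and their side of the threshold, and none changed direction. The fit to the deposited value table is among the settings and could not differ, since the values are the same. The counts of 14, 10 and 6 called members for apex against base, middle against base and apex against middle were 4, 3 and 1 under the rule of an F test with 2-fold, and 44, 22 and 14 with spike-in scaling, under which the median of all genes moved too. Leaving out 1 array gave 9 to 15, 6 to 12 and 1 to 9, the lowest without basal replicate 2 for both comparisons with the base and without middle replicate 2 for the last. With the median over probes the apex against middle count was 2, with apical replicates 2 and 4 left out it was 1, and with basal replicates 2 and 3 left out the middle against base count was 4. The cause was not tested. The paper names 4 mice, so the turns share animals, but which samples come from the same mouse is not stated. Deviations of same-numbered samples from the turn means correlated at -0.04 to 0.23, over 0.1 in 6 of 12 pairs. With the sample number as a replicate block the counts were 14, 10 and 8, with 8167 against 7645 genes called between apex and base, and Ccl2 (adjusted p = 0.062), Ccl3 (0.058) and Cxcl10 (0.075) lost their call there, as did Ccl2, Cx3cl1 and Cxcl10 between middle and base. The number of arrays and dim probes limit what could be seen for the 10 members not well above background.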
